A study of Rattus norvegicus with 6 samples.

Results

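The genes described here are the NF-κB transcription factors, their inhibitors, and cytokine, chemokine and other inflammatory genes, many of which NF-κB is known to control. They were measured in cultured retinal ganglion cells (RGCs), the neurons whose axons form the optic nerve. The genes were taken by name from a list of 33 symbols, matched to the gene symbol that opens each annotation in the FPKM table. The table holds 17366 transcripts, 1 per symbol, and 31 of the 33 symbols were found. Expression of the other two, Tnfaip3 and Relb, was not analysed here. Of the 31, 26 reached an FPKM of at least 1 in at least 3 of the 6 libraries and were tested.

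The cultures came from Sprague Dawley rats labelled age P5 and were grown for 10 days. For 12 h, 3 of them received 1 µg/ml of Chrdl1 (chordin-like 1, a secreted antagonist of bone morphogenetic proteins), and 3 received the vehicle, labelled as 0.1% BSA and 4 mM HCl. Each Chrdl1 library shares a 6-digit code in its title with 1 vehicle library. These pairs are named A, B and C here, in the numerical order of the codes, and the labels do not say what a code stands for. Whether the replicate libraries had separate animals or dishes as their source is not stated, and p-values therefore measure only how these libraries spread, which may be technical. The labels name RGC cultures as the source, although the extraction protocol names visual cortex. FPKM counts sequenced fragments scaled to transcript length and library depth, so levels can be compared between genes, and every level below is in FPKM.

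NF-κB is a family of dimeric transcription factors kept inactive in the cytoplasm by IκB proteins. Signals from interleukin-1, tumour necrosis factor or microbial products lead to breakdown of IκB, and the freed dimers enter the nucleus and switch on inflammatory genes, among them the genes of their own inhibitors. In the retina and brain, microglia and infiltrating macrophages are well-known sources of cytokines and chemokines, and glia, vascular cells and fibroblasts make several of them too.

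The DNA sequence NF-κB binds, the κB site, can be read in the promoters of members whose levels are described below. Of the 33 symbols, 27 had an entry in RefSeq's promoter sequences (GRCr8), and the 250 bases before the start site were searched on both strands for the κB consensus. A match was found in 14 of 27 (51.9%), Tnfaip3 among them, against 3.54% of all 33469 promoters. This is a description of sequences, since the list was put together around NF-κB and holds many genes known to answer it. With a looser pattern, GGG then any 5 bases then CC on either strand, 24 of 27 and 42.3% of all promoters had a match. Among the members tested, 10 of 22 with an entry held the consensus. The 8 stretches of 100 bases below are shown as examples of a match in genes described below: 3 IκB genes, Nfkb2, Il6, 2 chemokines and Lcn2. They are written 5′ to 3′ on the gene's strand, with matched bases in capitals.
Nfkbia: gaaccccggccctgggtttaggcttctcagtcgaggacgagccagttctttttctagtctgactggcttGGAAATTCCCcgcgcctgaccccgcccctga
Nfkbiz: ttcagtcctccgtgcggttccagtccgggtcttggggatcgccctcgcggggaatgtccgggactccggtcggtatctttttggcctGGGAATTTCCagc
Bcl3: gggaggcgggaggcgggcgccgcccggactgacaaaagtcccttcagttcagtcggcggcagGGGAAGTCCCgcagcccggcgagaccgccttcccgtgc
Nfkb2: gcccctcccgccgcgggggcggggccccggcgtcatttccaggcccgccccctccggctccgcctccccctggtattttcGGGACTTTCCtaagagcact
Il6: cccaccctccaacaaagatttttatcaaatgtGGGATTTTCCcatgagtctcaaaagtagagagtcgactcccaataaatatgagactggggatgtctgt
Cxcl1: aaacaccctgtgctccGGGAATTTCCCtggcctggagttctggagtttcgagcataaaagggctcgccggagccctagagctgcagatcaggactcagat
Cxcl2: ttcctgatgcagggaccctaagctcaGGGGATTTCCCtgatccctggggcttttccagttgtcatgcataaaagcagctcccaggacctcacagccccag
Lcn2: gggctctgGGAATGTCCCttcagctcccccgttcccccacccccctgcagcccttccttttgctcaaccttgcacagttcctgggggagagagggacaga

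On GRCr8 these stretches lie at chr6:78597073-78597172 (minus strand) for Nfkbia, chr11:58251621-58251720 (plus strand) for Nfkbiz and chr1:88613556-88613655 (minus strand) for Bcl3. The Nfkb2 stretch is chr1:255108274-255108373 (plus strand) and that of Il6 is chr4:5894576-5894675 (minus strand). Those of Cxcl1 and Cxcl2 are chr14:17479322-17479421 (minus strand) and chr14:17467256-17467355 (minus strand), and Lcn2 is at chr3:36081931-36082030 (minus strand). The first 7 end at the base before the start site, and the Lcn2 stretch runs from -250 to -151 relative to it. The matches began 31 bases before the start site in Nfkbia, 13 in Nfkbiz, 38 in Bcl3, 20 in Nfkb2, 68 in Il6 and 242 in Lcn2. In Cxcl1 and Cxcl2 the capitals hold overlapping matches, which began 84 and 83 bases before the start in Cxcl1 and 74 and 73 in Cxcl2. Nfkbie and Socs3 also held a match, 164 and 161 bases before the start. A match says nothing here of binding, and members without one include Il1b, Il1rn and C3.

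Sequencing depth, recovered from the steps of the FPKM values, was 14546600 to 26551700 reads per library, the lowest in the vehicle library of pair B and the others at 22870500 or more. RGC markers were abundant. Their summed FPKM over 7 genes, most of it from Sncg and Nefl, was, vehicle then Chrdl1, 2327.8 and 2320.7 in pair A, 2069.8 and 2049.95 in B, then 2217 and 1971 in C. Of the 7, 6 differed between codes, beside 47.4% of all tested genes. They did so in either direction, from a C over B ratio of 0.7001 for Pou4f2 to 1.81 for Thy1. Microglia and macrophage markers were present too, and differed between pairs. Their sum over 16 genes was 408 and 341 in pair A, 47.5 and 25.99 in B, then 493 and 436 in C. Of these markers, Cx3cr1 was at 0 to 0.063 FPKM and P2ry12 at 0 to 0.344, near the floor in every library. Stromal and mural markers summed to 107 and 98.1 in pair A, 20.2 and 12.6 in B, then 165 and 162 in C, with Col1a2 listed at 0 throughout. Astrocyte and Müller glia markers summed to 68.9 to 162 FPKM, most of it from Glul (51.5 to 82.5) and Vim (16.7 to 70.9). The others reached at most 5.95 (Slc1a3), with Gfap at most 1.24 and Aqp4 at most 0.017. Endothelial markers summed to 2.59 to 9.65 FPKM with Cldn5 at most 0.029, and the 4 T cell markers to at most 0.349. In bulk RNA, fewer cells of a type and less RNA per cell cannot be told apart.

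The main difference among the members lay between title codes rather than between treatments. Chemokine, interleukin and Lcn2 transcripts were highest in pair C, at 3.83 to 13.1 times pair B and 1.34 to 9.05 times pair A, and all of them except Il1rn were lowest in pair B. All 26 tested members differed between the codes (limma F test with treatment as a term, adjusted p under 0.05), where 47.4% of all 10390 tested genes did. Against pair B, 25 of 26 were higher in pair C, against 20.2% of all tested genes. Against pair A, 24 of 26 were higher in pair C, where the background was 21%. Pair B was below pair A for 18 of 26, beside 15% of all tested genes, and above it for 1, Il1rn, beside 14%. The median log2 difference of the tested members was 1.96 for C minus B and 0.94 for C minus A, against 0.030 and 0.069 over all tested genes, and -0.71 for B minus A against 0.026. Differences in this text are on the log2(FPKM + 1) scale, which understates those of low genes. With quantile normalization 17 of 26 passed as higher in pair C than in pair A. The number passing in each contrast could also fall when a single library was left out, which leaves 1 library in its code. Without the Chrdl1 library of pair A, 3148 genes and 22 of 26 members differed between the codes. Each code holds only 2 libraries, 1 of each treatment.

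**Figure D1:**
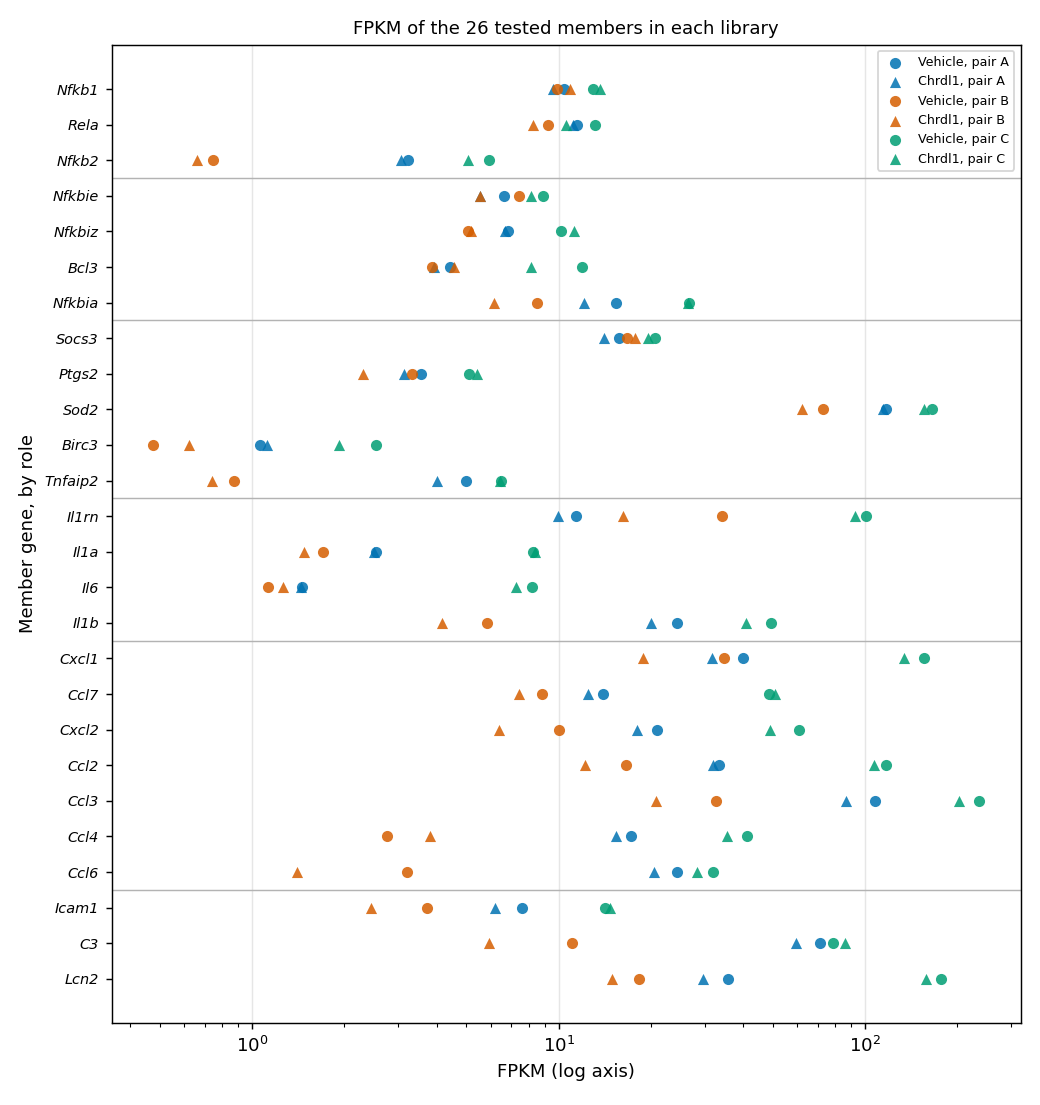
FPKM (horizontal log axis) of the 26 tested members in each of the 6 libraries, grouped by role; circles are vehicle and triangles Chrdl1, and colour gives the pair sharing a title code. Both pair C libraries lie above both pair B libraries for all 26 members, while vehicle and Chrdl1 of a pair mostly lie close together. Wider gaps in pair B include Ccl6 at 3.21 and 1.402, Il1rn at 34.2 and 16.2, C3 at 11.1 and 5.91 and Cxcl1 at 34.7 and 18.9.

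Both libraries of pair C lay above both of pair B for 26 of 26 members (background 34.7%), and above both of pair A for 25 of 26 (background 42.7%), all but Rela. By the mean of each code, 21 members ran C, A, B from high to low, an order that 20.8% of tested genes had. The other 5, Bcl3, Il1rn, Nfkb1, Nfkbie and Socs3, ran C, B, A. Both libraries of pair A lay above both of pair B for 19 of 26 members (background 33.2%), and for 7 they overlapped or lay in the opposite order. These were Il1rn, Cxcl1, Nfkbie, Nfkb1, Ptgs2, Socs3 and Bcl3.

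The Rel subunits, which form the DNA-binding dimers, split into a steady and a variable group. In what follows the vehicle value of each pair is set against its Chrdl1 value. Nfkb1, encoding p105 and p50, was at 10.4 against 9.57 FPKM in A, 9.903 against 10.9 in B and 12.98 against 13.6 in C. Rela, encoding the activating subunit p65, was at 11.5 against 11.2 FPKM in A, 9.22 against 8.24 in B and 13.2 against 10.6 in C. These are among the narrowest ranges of the set, and pair C exceeded pair B by 0.33 ± 0.11 (SE, limma adjusted p = 0.0322) for Nfkb1 and by 0.40 ± 0.11 (SE, limma adjusted p = 0.0131) for Rela. Nfkb2, encoding p100 and p52 of the non-canonical arm, was at 3.23 against 3.07 FPKM in A, 0.745 against 0.66 in B and 5.91 against 5.06 in C. It was below 1 FPKM in both pair B libraries, and pair C exceeded pair B by 1.93 ± 0.14 (SE, limma adjusted p = 2.8e-07), a 7.81-fold ratio of mean FPKM. Its reads there numbered 33 in the vehicle and 46 in the Chrdl1 library.

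Of the IκB proteins, Nfkbia varied most. Nfkbia, encoding IκBα, the inhibitor that NF-κB itself induces, was at 15.4 against 12.1 FPKM in A, 8.52 against 6.17 in B and 26.6 against 26.3 in C. Its order C, A, B held without overlap, with C minus B at 1.73 ± 0.11 (SE, limma adjusted p = 8.53e-08) and C minus A at 0.90 ± 0.11 (SE, limma adjusted p = 9.84e-05). Nfkbiz, encoding the nuclear IκBζ that is needed for a set of secondary response genes, was at 6.82 against 6.69 FPKM in A, 5.08 against 5.17 in B and 10.2 against 11.2 in C. Pair C was 2.09-fold above pair B. Bcl3, a nuclear IκB-like coactivator, was at 4.41 against 3.93 FPKM in A, 3.87 against 4.55 in B and 11.9 against 8.12 in C. Pairs A and B did not pass for a difference in Bcl3 (B minus A 0.0095 ± 0.15 (SE, limma adjusted p = 0.972)), and pair C stood 2.403-fold above pair A. Nfkbie, encoding IκBε, was at 6.65 against 5.56 FPKM in A, 7.45 against 5.56 in B and 8.896 against 8.13 in C, with a narrow range in which pair C was 1.39-fold above pair A. The F test of Nfkbie (adjusted p = 0.0206) was lost without either library of pair A, without the Chrdl1 library of pair C, without a filter, with quantile normalization or without treatment as a term. That of Nfkb1 was lost without a filter, with quantile normalization or without either the pair A or the pair C library of Chrdl1. Rela lost it without a filter, without the vehicle library of pair B or without the Chrdl1 library of pair A. Socs3 lost it without the Chrdl1 library of pair A, and Ptgs2 with quantile normalization or without the Chrdl1 library of pair C.

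Feedback, survival and stress genes had ratios of pair C to pair B from 1.17 (Socs3) to 8.01 (Tnfaip2). Sod2, the mitochondrial superoxide dismutase and a classic NF-κB target, was the highest of this group, at 117 against 114 FPKM in A, 72.95 against 62.2 in B and 165 against 155 in C. Pair C was 2.37-fold above pair B (1.24 ± 0.079 (SE, limma adjusted p = 8.05e-08)). Tnfaip2, a gene induced by tumour necrosis factor, was at 4.98 against 4.01 FPKM in A, 0.872 against 0.74 in B and 6.48 against 6.42 in C. Here pairs A and C lay close together and pair B stood apart, 8.01-fold below pair C. Birc3, encoding the inhibitor of apoptosis cIAP2, was at 1.06 against 1.12 FPKM in A, 0.475 against 0.621 in B and 2.54 against 1.92 in C. It was the lowest of the tested members, with 4 libraries at 1 FPKM or more and 18 to 176 reads per library. Ptgs2, the inducible cyclooxygenase, was at 3.56 against 3.13 FPKM in A, 3.31 against 2.303 in B and 5.09 against 5.43 in C. Socs3, which restrains signalling through JAK and STAT3, was at 15.8 against 14.1 FPKM in A, 16.7 against 17.7 in B and 20.6 against 19.6 in C. Socs3 was the member with the smallest ratio between pairs C and B, 1.17-fold (adjusted p = 0.113 by limma), and it passed for C against A alone (0.40 ± 0.095 (SE, limma adjusted p = 0.00704)).

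Among the cytokines, Il1b had the largest ratio of pair C to pair B and the receptor antagonist Il1rn the largest ratio of pair C to pair A. Il1rn also ran in another order than Il1a and Il1b, which encode ligands of the receptor that the antagonist blocks. Il1b, encoding interleukin-1β, was at 24.3 against 19.97 FPKM in A, 5.86 against 4.16 in B and 49.3 against 40.8 in C. The order was C, A, B without overlap, and pair C exceeded pair B 8.99-fold (2.95 ± 0.092 (SE, limma adjusted p = 1.29e-10)). Il1a, encoding interleukin-1α, was at 2.53 against 2.51 FPKM in A, 1.699 against 1.48 in B and 8.26 against 8.38 in C, with pairs A and B both low and pair C 3.301-fold above pair A. Il1rn, encoding the antagonist that blocks the interleukin-1 receptor, was at 11.4 against 9.94 FPKM in A, 34.2 against 16.2 in B and 100.3 against 92.6 in C. Pair A was the lowest, with pair B above it by 1.08 ± 0.17 (SE, limma adjusted p = 0.000486) and pair C 9.05-fold above it (3.07 ± 0.17 (SE, limma adjusted p = 6.66e-08)). In the table's rn6 coordinates, Il1a and Il1b are neighbours on chromosome 3 (121824712 to 121836122 and 121876259 to 121882637), and Il1rn lies elsewhere on that chromosome (1463208 to 1468624).

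Il6, encoding interleukin-6, was at 1.46 against 1.44 FPKM in A, 1.13 against 1.26 in B and 8.16 against 7.25 in C. Pairs A and B did not pass for a difference (-0.16 ± 0.14 (SE, limma adjusted p = 0.431)), and pair C was 5.31-fold above pair A (1.83 ± 0.14 (SE, limma adjusted p = 1.96e-06)). The Il6 values of pair B rest on 17 reads in the vehicle and 30 in the Chrdl1 library. Tnf, encoding tumour necrosis factor, was listed at 0 in all 6 libraries. Its transcript is listed with 2 genomic copies, and 76% of the 558 transcripts listed with more than 1 copy were at 0 in all libraries, against 16.5% of the 16808 with 1 copy. The value of Tnf therefore gives no level for the gene.

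All 7 tested chemokines were higher in pair C than in both other pairs and lower in pair B than in pair A, with ratios of pair C to pair B from 5.41 to 13.1. The CC chemokines draw monocytes, macrophages and T cells, and the CXC chemokines Cxcl1 and Cxcl2 draw neutrophils. Ccl3, encoding MIP-1α, reached the highest value of any member, at 108 against 86.4 FPKM in A, 32.7 against 20.7 in B and 236 against 203 in C. Pair C exceeded pair B 8.22-fold (3.02 ± 0.096 (SE, limma adjusted p = 1.36e-10)) and pair A 2.26-fold. Ccl4, encoding MIP-1β, was at 17.2 against 15.4 FPKM in A, 2.75 against 3.82 in B and 41.1 against 35.5 in C. Its listed transcript is 275 bases long, so that the pair B values rest on 11 and 24 reads. Ccl2, encoding the monocyte attractant MCP-1, was at 33.5 against 31.9 FPKM in A, 16.6 against 12.2 in B and 117 against 107 in C, a 7.797-fold ratio of pair C to pair B (2.89 ± 0.094 (SE, limma adjusted p = 1.51e-10)). Ccl7, encoding MCP-3, was at 14.01 against 12.5 FPKM in A, 8.83 against 7.42 in B and 48.7 against 50.8 in C, and pair C exceeded pair A 3.75-fold. For both of these the pair C libraries stood far above the other four, which were closer to each other.

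Ccl6, a CC chemokine of macrophages in rodents, was at 24.3 against 20.5 FPKM in A, 3.21 against 1.402 in B and 31.8 against 28.3 in C. It had the largest ratio of pair C to pair B among the members, 13.1-fold, but pair C was only 1.34-fold above pair A (0.41 ± 0.14 (SE, limma adjusted p = 0.0401)). The listed Ccl6 transcript is 343 bases long, and its pair B values rest on 16 reads with vehicle and 11 with Chrdl1. Cxcl1 was at 40.1 against 31.7 FPKM in A, 34.7 against 18.9 in B and 155 against 134 in C. The vehicle library of pair B lay within the range of pair A, and pair C was 4.04-fold above pair A (1.99 ± 0.12 (SE, limma adjusted p = 2.08e-07)). Cxcl2 was at 20.98 against 18.02 FPKM in A, 10.02 against 6.41 in B and 60.7 against 49.1 in C, with no overlap between codes and a C over B ratio of 6.69. Cxcl1 and Cxcl2, like Ccl3 and Ccl4, are similar paralogs, and how reads matching both were counted is not given in the sources used here. In rn6, Ccl2 and Ccl7 lie side by side on chromosome 10 (69412065 to 69413863 and 69423083 to 69424933), Ccl3 and Ccl4 lie together further along (70869516 to 70871066 and 70884595 to 70886067), and Cxcl1 and Cxcl2 are neighbours on chromosome 14 (18743678 to 18745457 and 18731346 to 18733391).

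The interferon-type chemokines and Ccl5 were low or listed at 0. Cxcl10, a target of interferon and NF-κB that draws activated T cells, was at 0.326 against 0.418 FPKM in A, 0 against 0.271 in B and 1.27 against 0.586 in C. It reached the filter's level in 1 library, from 0 to 38 reads per library, and was not tested. Cxcl11 was at 0 in 5 libraries and at 0.039 FPKM, from 1 read, in the Chrdl1 library of pair C. Ccl5, encoding RANTES, was listed at 0 in all 6 libraries, which at 3 reads allows up to 0.201 to 0.366 FPKM per library, for counting error only.

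Lcn2 and C3, secreted proteins of innate defence that are widely used as markers of reactive glia, had C over A ratios of 5.11 and 1.26. Lcn2, encoding lipocalin 2, was at 35.8 against 29.6 FPKM in A, 18.3 against 14.9 in B and 177 against 157 in C. Pair C exceeded pair B 10.1-fold (3.26 ± 0.078 (SE, limma adjusted p = 4.49e-11)) and pair A 5.11-fold (2.32 ± 0.078 (SE, limma adjusted p = 1.08e-09)). C3, the central complement component, was at 71.5 against 59.6 FPKM in A, 11.1 against 5.91 in B and 78.6 against 86.1 in C. Pair C exceeded pair B 9.703-fold, while pairs C and A did not pass for a difference (0.33 ± 0.15 (SE, limma adjusted p = 0.122)). Icam1, an adhesion molecule for leukocytes, was at 7.58 against 6.18 FPKM in A, 3.71 against 2.44 in B and 14.2 against 14.7 in C, in the order C, A, B. Vcam1, another such molecule, was at 0.044 to 0.616 FPKM from 3 to 49 reads and was not tested.

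The differences between codes moved with markers of other cell types, though not in the same proportions. All 13 tested microglia and macrophage markers were lower in pair B than in pair A, against 15% of all tested genes. Their median ratio of A over B was 10.4, where that of the 26 members was 1.79. The same markers had a median ratio of C over A of 1.22, from 0.957 to 1.54. Of the 13, 4 were called higher in pair C than in pair A, beside 21% of all tested genes. The members had a median of 2.04, from 1.05 to 9.05. Summed over each list, pair C was at 2.36 times pair A for the members, 1.24 for microglia and macrophage markers, 1.59 for stromal and mural markers and 0.901 for RGC markers. The members nearest the marker ratios were Ccl6, C3 and Tnfaip2, with A over B ratios of 9.71, 7.72 and 5.58 and C over A ratios of 1.34, 1.26 and 1.44. Farthest from them was Il1rn, with an A over B ratio of 0.422. These members were chosen after their values were seen. The difference in ratio between the lists was not tested.

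**Figure D2:**
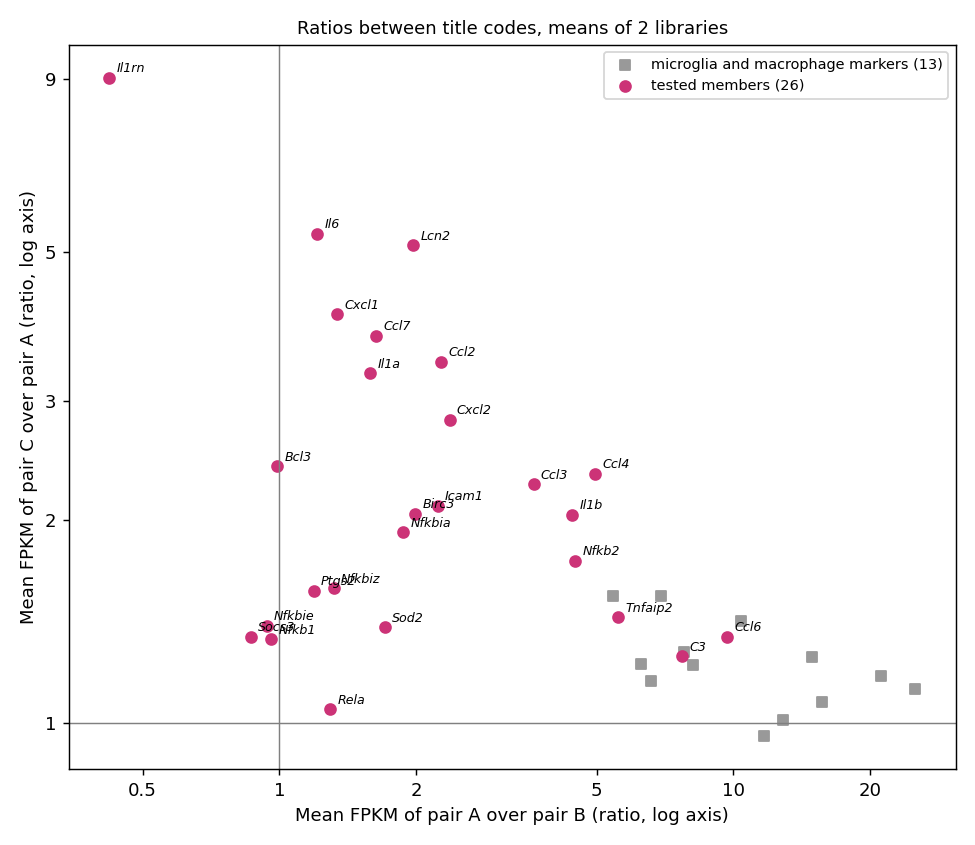
Ratio of mean FPKM of pair A over pair B (horizontal log axis) and of pair C over pair A (vertical log axis) for the 26 tested members (pink, labelled) and 13 tested microglia and macrophage markers (grey squares), each mean taken over 2 libraries. The markers lie to the right with C over A ratios from 0.957 to 1.54, and the members spread from Ccl6 and C3 beside them to Il1rn at 9.05 on the upper left.

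Some genes of glia and fibroblasts had their highest values in pair C. The 3 given here were chosen after their values were seen, and Gfap and Dcn were not tested. Gfap, the astrocyte filament, was at 0.153 against 0.08 FPKM in A, 0.077 against 0.065 in B and 1.24 against 1.16 in C. Dcn, encoding decorin of fibroblasts, was at 0 in the 4 libraries of pairs A and B and at 5.21 and 4.76 in pair C. Vim, an intermediate filament of glia and mesenchymal cells, was at 30.2 against 27.8 FPKM in A, 20.5 against 16.7 in B and 70.9 against 64.7 in C. The part of microglia, macrophages, glia or stromal cells in the members' levels was not tested. Within a library, the members' sum was divided by the microglia and macrophage sum. This gave 1.504 and 1.57 in A, 6.82 and 9.33 in B, then 2.88 and 2.95 in C. In pair B the marker sums were small, at 47.5 and 25.99 FPKM. The members' sum also holds genes that varied less between pairs, such as Sod2 at 72.95 and 62.2 in B. Both raise the ratio of pair B, so it gives no reading of which cells made the members.

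**Figure D3:**
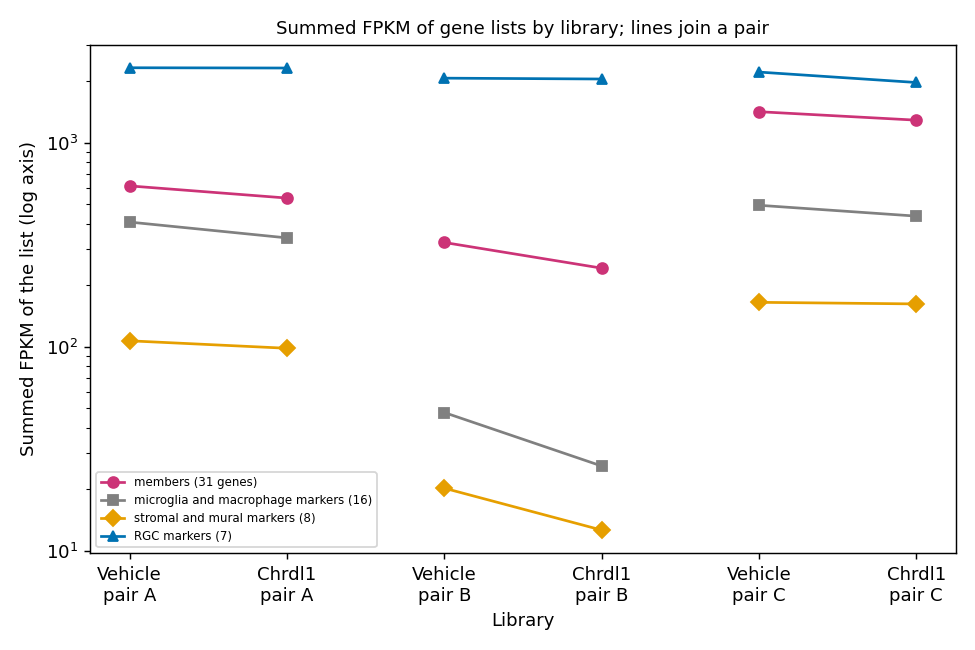
Summed FPKM (vertical log axis) of the 31 members and of marker lists in each library (horizontal axis), with lines joining the 2 libraries of a pair. RGC markers stay between 1971 and 2327.8 FPKM, while microglia and macrophage markers fall to 47.5 and 25.99 in pair B and the members peak at 1417 in the vehicle library of pair C.

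Whether 12 h of Chrdl1 alters these genes is the question of the treatment comparison. No member passed the test. By limma, 0 of 26 had an adjusted p under 0.05, against 0% of all 10390 tested genes, and 0 members were at an unadjusted p under 0.05, against 18 genes in all. This fit leaves the differences between codes in its error, so its lack of calls says little about Chrdl1. With the title code as a replicate block, again 0 of 26 passed (0% of all tested genes), with a smallest adjusted p among the members of 0.538. Lcn2, for example, was at 76.98 ± 86.96 FPKM (SD, n = 3) under vehicle against 67.3 ± 78.4 (n = 3) under Chrdl1, so that log2 fold change was -0.24 ± 1.04 (SE; 95% interval -2.70 to 2.23). That interval takes in the distance between codes, and with the block it ran from -0.37 to -0.098.

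The members' values nevertheless lay mostly below those of vehicle within a pair. Of 26 fitted log2 fold changes 23 were negative, against 61.6% of all tested genes, with a median of -0.15 where all tested genes had -0.028. In all 3 pairs 14 of 26 were lower with Chrdl1, against 19.5% of tested genes, and 0 were higher in all 3. The median of the members was -0.28 with voom, 0.31 without the Chrdl1 library of pair B, 0.27 without the vehicle library of pair C, -0.62 without the vehicle library of pair B and -0.65 without the Chrdl1 library of pair C. Leaving out 1 library makes the codes unequal between the groups. The 14 were Nfkbia, Nfkbie, Tnfaip2, Il1b, Il1rn, Ccl2, Ccl3, Ccl6, Cxcl1, Cxcl2, Lcn2, Nfkb2, Rela and Sod2. The median over members was -0.15 in pair A, -0.25 in pair B and -0.12 in pair C, where all tested genes had -0.013, -0.022 and -0.055. With the block, 11 of 26 were lower at an unadjusted p under 0.05, against 4.19% of all tested genes lower at that level. None of these passed after adjustment. All members were measured in the same 3 pairs, so they are not independent of each other. The excess of these counts over the background was not tested.

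Chemokines and Il1rn held the largest of these differences. Cxcl1 was at 76.7 ± 68.2 FPKM (SD, n = 3) under vehicle against 61.6 ± 63.3 (n = 3) under Chrdl1, so that log2 fold change was -0.46 ± 0.82 (SE; 95% interval -2.39 to 1.47), and its differences in pairs A, B and C were -0.33, -0.85 and -0.21. With the block its SE was 0.099, its interval ran from -0.68 to -0.25 and its limma adjusted p was 0.538. Ccl3 differed by -0.31, -0.63 and -0.21 in the 3 pairs, a mean of -0.39 with a block interval from -0.56 to -0.22 and the same adjusted p. For Cxcl2 the differences were -0.21, -0.57 and -0.30, and for Ccl6 they were -0.24, -0.81 and -0.16. Pair B gave the largest difference in all of these, though that of Ccl6 rests on 16 reads with vehicle and 11 with Chrdl1. Ccl2 was at -0.067, -0.42 and -0.13 in the 3 pairs, and Ccl7 at -0.15, -0.22 and 0.061. Ccl4 was lower in pairs A and C and higher in pair B, at -0.15, 0.36 and -0.21, the pair B value resting on 11 and 24 reads.

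Among the cytokines, Il1b differed by -0.27, -0.41 and -0.27 in pairs A, B and C, lower in each (block interval from -0.48 to -0.15). Il1rn differed by -0.18, -1.03 and -0.11, and the pair B value alone, 34.2 FPKM with vehicle and 16.2 with Chrdl1, gave the largest part of its mean. Il1a and Il6 lay close to 0, with means of -0.039 and -0.023 and pair values of both signs. In the fit with the block on pairs B and C only, 2 members passed, against 0.241% of all tested genes. They were Il1rn (log2 fold change -0.57 ± 0.12 (SE), limma adjusted p = 0.00403) and Cxcl1 (-0.53 ± 0.11, 0.00597). The differences of Il1rn in those pairs were -1.03 and -0.11, which lie farther apart than this SE, drawn by limma in part from other genes. With pair B or pair C left out, 0 members passed.

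The IκB and Rel genes had mean differences from -0.25 to 0.039. Nfkbia was at 16.8 ± 9.12 FPKM (SD, n = 3) under vehicle against 14.9 ± 10.4 (n = 3) under Chrdl1, so that log2 fold change was -0.25 ± 0.55 (SE; 95% interval -1.54 to 1.05), with pair values of -0.32, -0.41 and -0.013, the last close to 0. Nfkbie was lower in all 3 pairs by a similar amount, at -0.22, -0.37 and -0.12. Nfkbiz and Nfkb1 had positive means of 0.039 and 0.028, with intervals from -0.70 to 0.78 and from -0.36 to 0.42. Rela was at -0.036, -0.15 and -0.29 and Nfkb2 at -0.058, -0.072 and -0.19. Bcl3 had pair values of both signs, at -0.14, 0.19 and -0.50. Among the other members, Lcn2 was at -0.26, -0.28 and -0.17, C3 at -0.26, -0.80 and 0.13 and Icam1 at -0.26, -0.45 and 0.041, the last pair of genes being higher with Chrdl1 in pair C. Sod2 was at -0.035, -0.23 and -0.086, while Birc3, Ptgs2 and Socs3 had pair values of both signs.

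**Figure D4:**
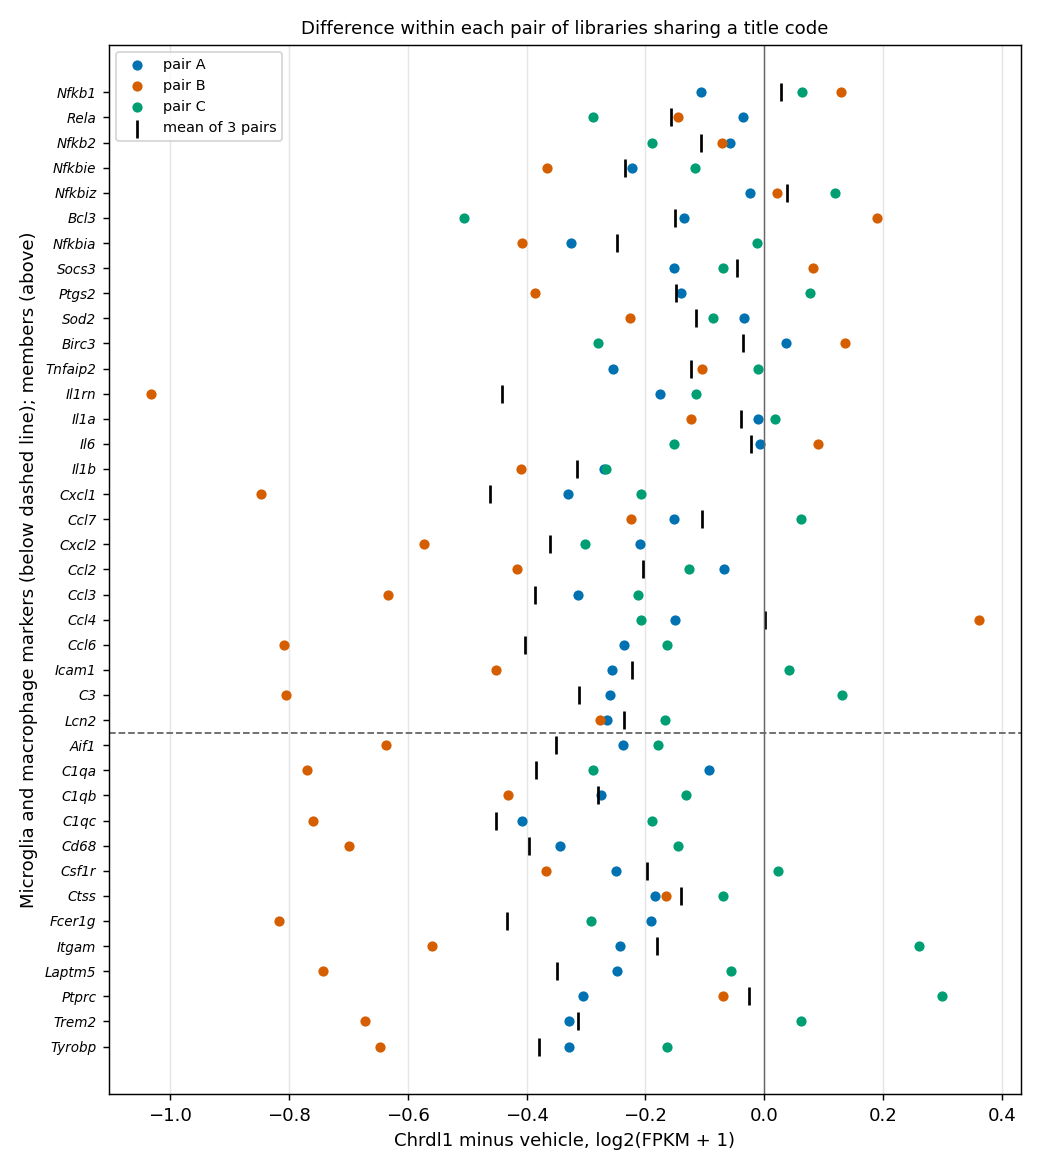
Difference between the Chrdl1 and vehicle library of each pair on the log2(FPKM + 1) scale (horizontal axis) for the 26 tested members, above the dashed line, and 13 microglia and macrophage markers, below it; points are pairs and the black bar is the mean of 3 pairs. Both sets lie mostly left of 0, with pair B farthest left for Il1rn at -1.03.

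Microglia and macrophage markers also lay mostly below vehicle. All 13 tested markers had a negative log2 fold change (median -0.35), against 61.6% of all tested genes. In all 3 pairs 9 of 13 were lower, against 19.5%, and 0 passed the test. Their summed FPKM in the Chrdl1 library was 0.837, 0.547 and 0.885 times that of vehicle in pairs A, B and C, beside 0.872, 0.748 and 0.909 for the members. Stromal and mural markers gave 0.919, 0.623 and 0.982, and RGC markers 0.997, 0.990 and 0.889. The vehicle library of pair B is also the shallowest, at 14546600 reads against 22870500 in its partner. The part of these cell types or of depth in the members' differences was not tested.

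Genes upstream of the members were called between codes at a share nearer the background, but most of them were also highest in pair C. Of a list of 35 NF-κB, receptor and adaptor genes, 27 were tested and 15 differed between the codes, against 47.4% of all tested genes. With Chrdl1, 0 of 27 passed and 20 had a negative log2 fold change (median -0.085), a sign that 61.6% of all tested genes had. Of all tested genes, called or not, 20.8% ran C, A, B and 20.7% ran C, B, A. Of the 27 here, 9 called and 5 not called ran C, A, B, and 5 called and 5 not called ran C, B, A. The order B, C, A was that of 1 called and 2 not called. Of the 15, 14 were highest in pair C: Tnfrsf1a, Tnip1, Bcl10, Tlr2, Ikbkb, Chuk, Cd14, Tnfrsf1b, Il1r1, Otulin, Myd88, Tnip2, Il1rap and Irak4. The exception was Irak1, a kinase of the interleukin-1 and Toll-like receptor pathway, which was at 27.2 against 26.004 FPKM in A, 31.6 against 34.6 in B and 30.4 against 29.03 in C and highest in pair B. The 3 highest of the list by mean FPKM were Ltbr, Irak1 and Tnfrsf1a. Ltbr, the lymphotoxin β receptor that feeds the non-canonical arm, was at 29.05 against 29.01 FPKM in A, 28.9 against 27.1 in B and 37.2 against 30.7 in C and did not pass between codes (adjusted p = 0.0520). Tnfrsf1a, the main receptor of tumour necrosis factor, was at 20.9 against 20.7 FPKM in A, 20.7 against 21.2 in B and 26.95 against 24.4 in C. The largest ratios of pair C to pair B in this list were those of Cd14 (12.9-fold), Tlr2 (8.14-fold) and Tnfrsf1b (7.03-fold), receptors well known on macrophages. Il1r1, the signalling receptor for interleukin-1, was at 4.15 against 3.96 FPKM in A, 3.201 against 3.35 in B and 7.44 against 9.01 in C.

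Of 26 further cytokine and chemokine genes and receptors, 17 were tested and 13 differed between codes, beside 47.4% of all tested genes, and 0 passed for Chrdl1 (median log2 fold change -0.014). Highest in pair C were 11 of the 13, to be read beside the same 20.8% and 20.7% of all tested genes: Cxcl14, Tgfb1, Il18, Cxcl16, Cx3cl1, Csf1, Il10, Ackr3, Osmr, Lif and Cxcr4. Jak1 and Lifr were the 2 called genes highest in pair B and lowest in pair C. Il10, encoding the anti-inflammatory interleukin-10, had the largest ratio of C to B, at 3.87 against 2.73 FPKM in A, 0.611 against 0.518 in B and 9.82 against 9.06 in C. The 3 most abundant were Jak1, Stat3 and Il6st, the shared signalling parts of the interleukin-6 family. Jak1 was at 97.2 against 95.2 FPKM in A, 103 against 98.8 in B and 78.4 against 78.8 in C. Stat3 was at 50.8 against 50.1 FPKM in A, 46.9 against 46.5 in B and 52.9 against 52.5 in C, with no difference called between codes (adjusted p = 0.167). Il6st, encoding the receptor subunit gp130, was at 25.2 against 26.5 FPKM in A, 31.7 against 30.9 in B and 27.6 against 30.8 in C and was not called either (adjusted p = 0.0517). The chemokine receptors Ccr1, Cxcr3 and Cx3cr1 were at most 0.139, 0.025 and 0.063 FPKM, and Cxcr2 was listed at 0.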

How the data were processed

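RNA was measured by sequencing in 6 RGC culture libraries, 3 per treatment. The authors deposited 1 table of FPKM values per transcript, made with STAR 2.4.0k and HOMER 4.8.3 on rn6, per the submitters' processing notes; counting settings: not given in the sources used here. Low FPKM values stepped in whole reads, which gave totals of 14546600 to 26551700 reads per library. Precision is limited by these reads and by 3 libraries per group, and read floors cover counting error only.

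Genes with FPKM of 1 or more in 3 or more libraries entered limma 3.58.1 (R 4.3.3, trended variance, two-sided) on log2(FPKM + 1), with Benjamini-Hochberg adjustment over all 10390 and a threshold of 0.05. Treatment was fitted alone, and title codes by F test and contrasts with treatment as a term. The scripts were tested on simulated data. Same-coded libraries deviated together from their group means (r across genes 0.82, 0.86 and 0.84 for pairs A, B and C), so the code was also used as a replicate block. Alternatives were a pseudocount of 0.1, no filter, quantile normalization, voom on recovered reads, and leaving out libraries or pairs.

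Every member is accounted for, tested members with all 6 values; from the upstream and receptor lists the 3 genes with the highest mean FPKM and those called are named, and other named genes were chosen after their values were seen. Members and lists were chosen with earlier results of these data known. Promoters came from RefSeq (GRCr8). A planned comparison of chemokine protein sequences was not run.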

Additional observations from a re-analysis of the deposited data

How the results depend on the processing

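For Chrdl1 against vehicle, 0 genes passed under every alternative on all 3 pairs and with any 1 library left out. With the replicate block, 25 genes, 2 of them members, passed without pair A, and 34 genes, 0 of them members, without pair B. The replicate block kept the members' median at -0.15, and it changed no other call. The median was -0.28 with voom, and -0.65 to 0.31 when 1 library was left out, which leaves the codes unequal between groups; the cause of the voom shift was not tested.

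Signs of small differences turned in 14 cases. Birc3 was at 6.2e-05 with a pseudocount of 0.1, 0.018 with quantile normalization and 0.086 without pair C. Ccl4 was at -0.19 with voom, -0.12 with voom and the block, and -0.18 without pair B. With voom and the block Il1a was at 0.019 and Ccl7 at 0.0031. Without pair A Socs3 was at 0.0059. Without pair B Il1a was at 0.0032 and Nfkb1 at -0.022. Without pair C Nfkbiz was at -0.0014, Il6 at 0.042 and Bcl3 at 0.027.

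With 1 library left out, the log2 fold change for Chrdl1 ran from -0.75 to 0.22 for Nfkbia, -0.24 to 0.27 for Nfkbiz, -0.74 to 0.48 for Tnfaip2, -0.60 to 0.49 for Il1a, -1.11 to 0.52 for Il1b, -1.36 to 0.32 for Il1rn, -0.63 to 0.65 for Il6 and -0.996 to 0.55 for Ccl2. It ran from -1.14 to 0.49 for Ccl3, -0.96 to 0.78 for Ccl4, -1.33 to 0.73 for Ccl6, -0.87 to 0.57 for Ccl7, -1.26 to 0.22 for Cxcl1, -1.05 to 0.33 for Cxcl2, -0.77 to 0.32 for Icam1 and -1.18 to 0.68 for Lcn2. It was -1.20 to 0.82 for C3, -0.098 to 0.14 for Nfkb1, -0.65 to 0.42 for Nfkb2, -0.33 to 0.30 for Birc3, -0.42 to 0.065 for Ptgs2, -0.14 to 0.080 for Socs3, -0.42 to 0.25 for Sod2 and -0.42 to 0.29 for Bcl3. Nfkbie and Rela stayed below 0.

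For differences between title codes, 3148 to 5581 genes passed with 1 library left out, the lowest without the Chrdl1 library of pair A, and 22 to 26 members. Of the members, 3 (Nfkbie, Nfkb1, Rela) did not pass without a filter and 3 (Nfkbie, Nfkb1, Ptgs2) did not with quantile normalization. Quantile normalization gave Rela -0.080 for C minus A, and Nfkb1 -0.0093 and Bcl3 -0.0031 for B minus A. With 1 library left out, C minus A ran from -0.041 to 0.16 for Rela and from -0.00072 to 0.66 for C3. B minus A ran from -0.25 to 0.26 for Bcl3, -0.026 to 0.17 for Nfkbie and -0.046 to 0.16 for Nfkb1. The looser promoter pattern matched 24 members against 14, as it allows any base between GGG and CC. Depth limits most the members with under 50 reads in both libraries of pair B (Nfkb2, Il6, Birc3, Ccl4 and Ccl6).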
